A study of Macaca mulatta with 8 samples.

Results

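The semaphorins, their plexin and neuropilin receptors and the plexin domain containing genes PLXDC1 and PLXDC2 were followed across the cell classes of the infant macaque brain. Members were taken by gene symbol: SEMA3 to SEMA7 with a letter from A to G, PLXN with a letter from A to D and a digit, NRP1, NRP2, PLXDC1 and PLXDC2. The count matrix held 32 such genes among its 21748: 20 semaphorins, 8 plexins, 2 neuropilins and the 2 PLXDC genes. The rule uses symbols only, but it was chosen with earlier results of these data known. PLXNB3, a further plexin, was not analysed here.

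The data are single-nucleus 3' RNA counts (10x Genomics chemistry v3) from brain tissue of male rhesus macaques, in which each unique molecular identifier (UMI) stands for 1 captured RNA molecule. Of the 8 samples, 4 came from the mixed tissue of 2 control animals and 4 from 1 animal given the inhaled anaesthetic sevoflurane (about 2.5 to 3%) in 4 h sessions around postnatal day 7 and again at 14 and 28 days. The age at tissue collection is not given in the sources used here. The characteristics of the samples name hippocampus and their growth protocol names amygdala, and which region was sampled is not known here. By the design text the mixed tissue of each group was divided into 4 samples, so the samples of a group are not separate animals. No source used here ties a library to a sample, so control and sevoflurane nuclei were not compared and the matrix was treated as 1 sample without p-values.

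Semaphorins are guidance proteins. Class 3 members are secreted and most bind neuropilins, which pass the signal on through A-type plexins, while SEMA3E binds plexin D1 directly. Class 4 to 6 members span the membrane and class 7 is anchored to it by a lipid, and they bind plexins without needing a neuropilin. Plexins act through an intracellular domain that switches off small R-Ras and Rap GTPases, and through kinases and collapsin response mediator proteins, and so make growth cones turn or collapse. In the developing hippocampus these proteins are known for layering the mossy fibre and perforant path inputs and for guiding interneurons, oligodendrocyte precursors and blood vessels. PLXDC1 and PLXDC2 carry a plexin-like repeat but are receptors for the secreted protein PEDF (gene SERPINF1), not for semaphorins.

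The libraries were not alike. They are numbered 1 to 8 by the suffix of their barcodes and held 35806547 to 47007082 UMIs each. Neurons made up 49.4% and 50.6% of the nuclei kept in libraries 1 and 2, 29.6% and 30.3% in libraries 3 and 4, and 71% to 71.6% in libraries 5 to 8, and the median UMI count per nucleus was 3189 to 3426 in libraries 1 to 4 against 5730 to 5831 in libraries 5 to 8. By neuron share the libraries fall into sets of 2, 2 and 4, and by median UMI count into sets of 4 and 4. How these sets relate to the samples is not known here, and the reason was not tested. Agreement between libraries that resemble each other says less than their number. Of 59318 barcode sequences, 429 occurred in more than 1 library (1.44% of barcodes).

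Clustering without the members gave 44 clusters, of which marker genes placed all but 4 in 16 classes. They are called here granule, pyramidal, other excitatory, MGE and CGE (interneurons with markers of the medial and caudal ganglionic eminence), other inhibitory, immature neurons, astrocytes, oligodendrocyte precursors, newly formed and mature oligodendrocytes, microglia (a list that includes macrophage markers), ependymal, endothelial and mural cells and fibroblasts. Each name means a class like that type by its markers. The names hold unequally well: 13 of 14 microglial and 9 of 9 oligodendrocyte markers found in the matrix were highest in their class, and 7 of 8 granule markers were highest in granule nuclei among the 3 excitatory classes. For pyramidal markers it was 5 of 9, and their summed level was 1217 CPM (UMIs of the gene per 1000000 UMIs of the class) in the pyramidal class against 1425 CPM in other excitatory nuclei. The summed granule and MGE lists were higher in newly formed oligodendrocytes (6248 and 5392 CPM) than in their own classes (2973 and 4510 CPM). In the 137 mural nuclei 1 UMI is worth 4.14 CPM, and the mural cluster also held 7 of 9 fibroblast markers at 10 CPM or more.

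Of the 32 members, 29 reached 10 CPM in at least 1 class. SEMA6B had no UMI in any nucleus, which allows up to 0.00906 CPM over the whole matrix. SEMA3G, which is known as an endothelial semaphorin, had 9 UMIs in the named classes, all of them endothelial (6.73 CPM, exact 95% Poisson interval 3.08 to 12.8). PLXNA3, a receptor of SEMA3A and SEMA3F, had 204 UMIs and stayed at or below 3.38 CPM. The class with the highest level was 1 of the 7 neuron classes for 11 of the 29 and 1 of the 9 non-neuronal classes for 18. Leading classes were not counted over all genes, so nothing about the family is read from these and the following counts. Newly formed oligodendrocytes led for 6 members, all semaphorins (SEMA3E, SEMA4C, SEMA4D, SEMA5A, SEMA6A and SEMA6D), and immature neurons for 5 (SEMA3A, SEMA3C, SEMA7A, PLXNA2 and NRP2). The first of these counts depended on the clustering: at the finer and at the coarser clustering SEMA4C, SEMA4D and SEMA6A were highest in mature oligodendrocytes, which left 3 of the 6. With at least 1000 genes per nucleus SEMA4C and SEMA6A moved in the same way, and without library 4 SEMA4C did. The leading class was at least 2-fold above the next for 11 members, and for 10 members the interval of that ratio included 1, so no single leading class can be given for them. All intervals cover counting error only.

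**Figure D1:**
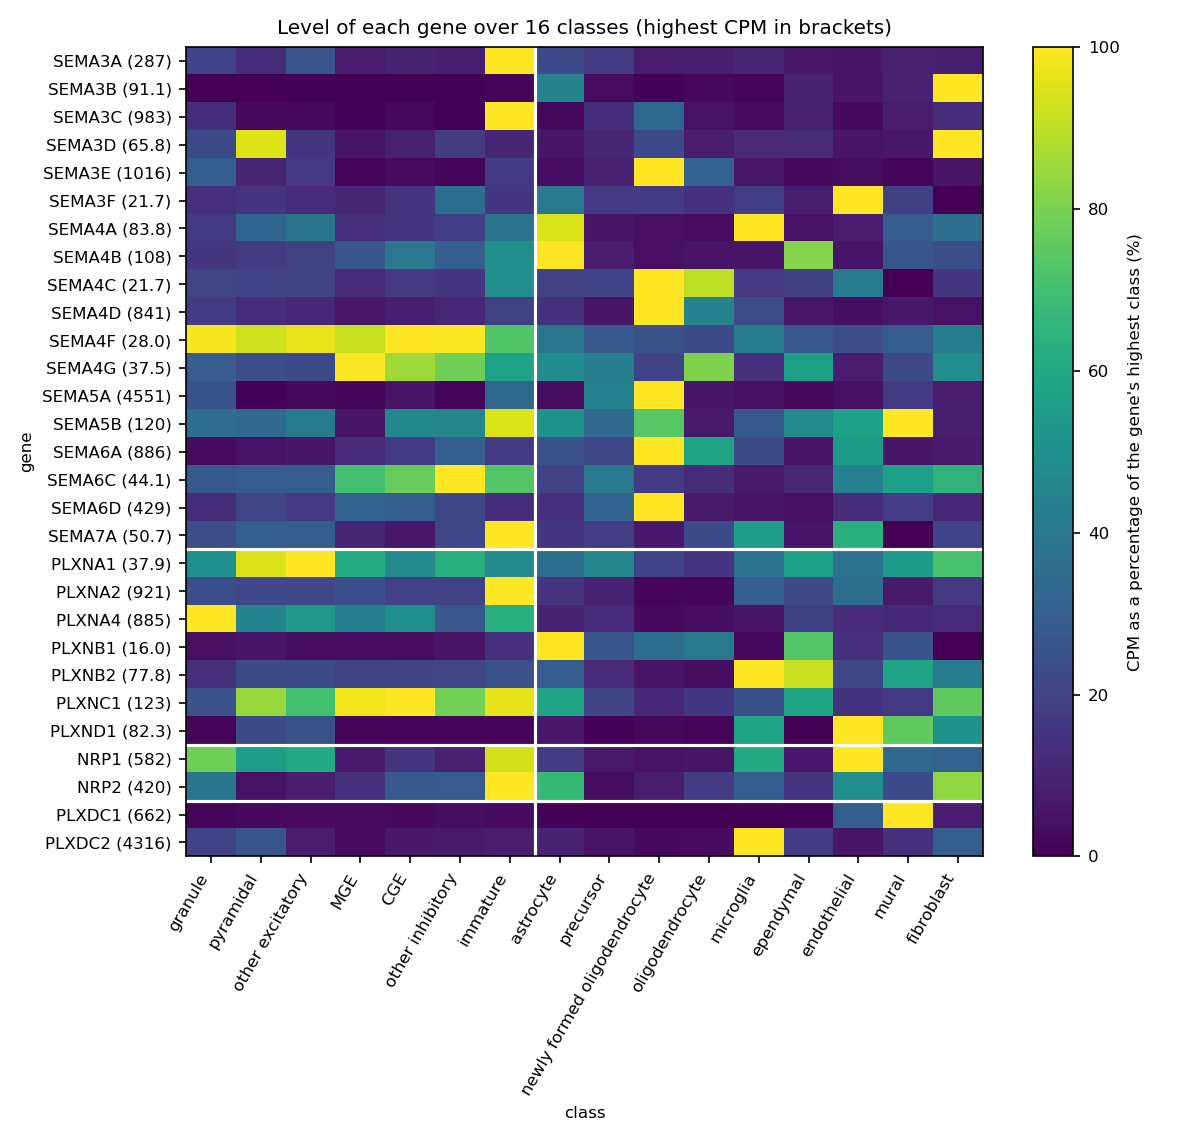
Each row is 1 of the 29 genes that reached 10 CPM and each column 1 of 16 classes; the colour gives the CPM as a percentage of the gene's highest class, whose CPM stands in brackets. White lines part semaphorins, plexins, neuropilins and PLXDC genes, and neurons from other classes; the newly formed oligodendrocyte column is brightest for 6 semaphorins (3 at the finer and at the coarser clustering, where SEMA4C, SEMA4D and SEMA6A were highest in mature cells) and dark for both neuropilins and for the plexins other than PLXNB1 and PLXNA1.

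Classes were set against each other by 1 rule throughout. Members with 10 CPM or more in either of the classes counted as measured. A call needed a ratio of 2-fold or more, 10 CPM in the class with more, and agreement in direction between all libraries that held 50 or more nuclei of each class. Over 9 comparisons 28 of the 29 members measured in any of them were called at least once, 93 calls in all, beside 61.6% of the 12378 genes measured in any. The 4 members never called were PLXDC1, which was measured, and PLXNA3, SEMA3G and SEMA6B. The members were chosen with results of these data known, so nothing is read from the difference. The lower bound of the exact interval of the ratio was above 1 for all 93 calls, and 67 were kept under every alternative analysis. Scaling by trimmed means in place of total UMIs shifted the ratios of a comparison by -0.22 to 0.34 on the log2 scale, by over 0.1 in 7 of 9 comparisons.

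In the oligodendrocyte lineage, the mature cells and precursors were set apart by 10 members, 7 of them semaphorins. Against precursors, mature oligodendrocytes had higher levels of 5 of 19 measured members (8.03% of all measured genes were called in this direction) and lower levels of 5 (12.8%). Higher were SEMA4D, SEMA4C, SEMA3E, SEMA6A and NRP2. Lower were SEMA5A, SEMA5B, SEMA6D, PLXNA2 and PLXNA4. The median log2 ratio of the measured members was -0.84, beside -0.08 over all measured genes.

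SEMA4D, a class 4 protein that acts through B-type plexins and is known to restrain oligodendrocyte maturation, was at 36.4 to 73.7 CPM in the precursors of the 8 libraries (median 48.1) and at 310.2 to 531 CPM in the mature cells (median 395). The libraries of the stages did not overlap, and the ratio of the summed counts was 7.6 (6.94 to 8.34). SEMA5A, a membrane protein with thrombospondin repeats that can attract or repel axons, went the other way. It was at 1883 to 2461 CPM in precursors (median 2179) and at 272 to 434 CPM in mature oligodendrocytes (median 304), 7.13-fold lower (6.91 to 7.35) and again without overlap.

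The other called ligands followed these examples. SEMA3E was 3.44-fold (3.21 to 3.69), SEMA6A 2.75-fold (2.62 to 2.89) and SEMA4C 4.53-fold (3.31 to 6.34) higher in mature cells, and SEMA5B was 4.82-fold (4.01 to 5.83) and SEMA6D 4.29-fold (3.89 to 4.73) lower. Among the receptors, NRP2 was 4.99-fold higher in mature cells (4.22 to 5.94), at 60 to 133 CPM against 9.72 to 29 CPM over the libraries. The A-type plexins PLXNA2 and PLXNA4, which receive class 3 and class 6 signals, were 5.79-fold (5.06 to 6.64) and 3.21-fold (2.91 to 3.55) higher in precursors. SEMA3A, SEMA3C, SEMA6C and PLXNA1 passed 2-fold in favour of precursors but took the other direction in 1 of 8 libraries each. The SEMA5B call was lost at the finer and the coarser clustering (log2 ratios of -0.70 and -0.68) and under a filter of 1000 genes a nucleus (-0.97).

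Newly formed oligodendrocytes had the highest levels of several ligands in the lineage. Against mature cells they had higher levels of 7 of 18 measured members (9.1% of all measured genes), all semaphorins, and lower levels of 3 (11.5%), which were SEMA4G, SEMA7A and NRP2. Only libraries 1 to 4 held 50 nuclei of both stages, and the comparison of direction rests on them. With each library weighted equally the split was 5 against 4, and at the finer and the coarser clustering it was 3 against 5 and 4 against 5. The median log2 ratio was 0.05 over the members and -0.16 over all measured genes.

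SEMA5A reached 4648, 4322, 4557 and 4523 CPM in newly formed oligodendrocytes of libraries 1 to 4, where mature cells had 272, 276, 282 and 274 CPM. The libraries of each stage lay close together, and the summed counts differed 16.3-fold (15.8 to 16.8). SEMA6D, a transmembrane ligand of PLXNA1 and PLXNA4, was at 425, 404, 463 and 431 CPM against 37.4, 33.7, 30.7 and 30.6 CPM, 13.5-fold higher (12.3 to 14.8). SEMA5B was 10.4-fold (8.69 to 12.6) and SEMA3C, a secreted ligand of both neuropilins, 6.68-fold (6.16 to 7.24) higher. The last ligand called, SEMA3D, was at 14.8 CPM against 4.93 CPM. Across the lineage, SEMA5A stood at 1994, 4551 and 279.7 CPM in precursors, newly formed and mature cells, SEMA6D at 136, 429 and 31.8 CPM and SEMA3C at 129.7, 332 and 49.7 CPM.

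SEMA3E and SEMA4D were also called higher in newly formed cells, 3.14-fold (3.03 to 3.26) and 2.24-fold (2.16 to 2.33), but here the class held unlike clusters. Of its 2 clusters, cluster 20 (976 nuclei) had 572 CPM of SEMA3E, 444 CPM of SEMA4D, 226 CPM of SEMA6A and 5565 CPM of SEMA5A. Cluster 38 (293 nuclei) had 2042, 1759, 2412 and 2206 CPM of the same genes. At the finer and the coarser clustering SEMA4D was slightly lower in newly formed than in mature cells (log2 ratios of -0.12 and -0.14), while SEMA5A and SEMA6D stayed called. SEMA5B and SEMA3E were no longer called there either (log2 ratios of 0.28 and 0.32 at the finer clustering, 0.26 and 0.32 at the coarser), and the split of calls was 3 against 5 at the finer and 4 against 5 at the coarser clustering.

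Most receptors were low in this stage. PLXNA2 was at 15 CPM, PLXNA4 at 23.8 CPM, NRP1 at 28.4 CPM and NRP2 at 31.8 CPM. PLXNA1, PLXNB1, PLXNB2 and PLXND1 stayed below 10 CPM, but PLXNB1, at 5.75 CPM, reached 5 CPM in only 4 of 16 classes, of which this was 1. PLXNC1 was at 13.8 CPM. Mature cells were divided in NRP2, which was at 189 CPM in cluster 16 and 20.1 CPM in cluster 0.

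**Figure D2:**
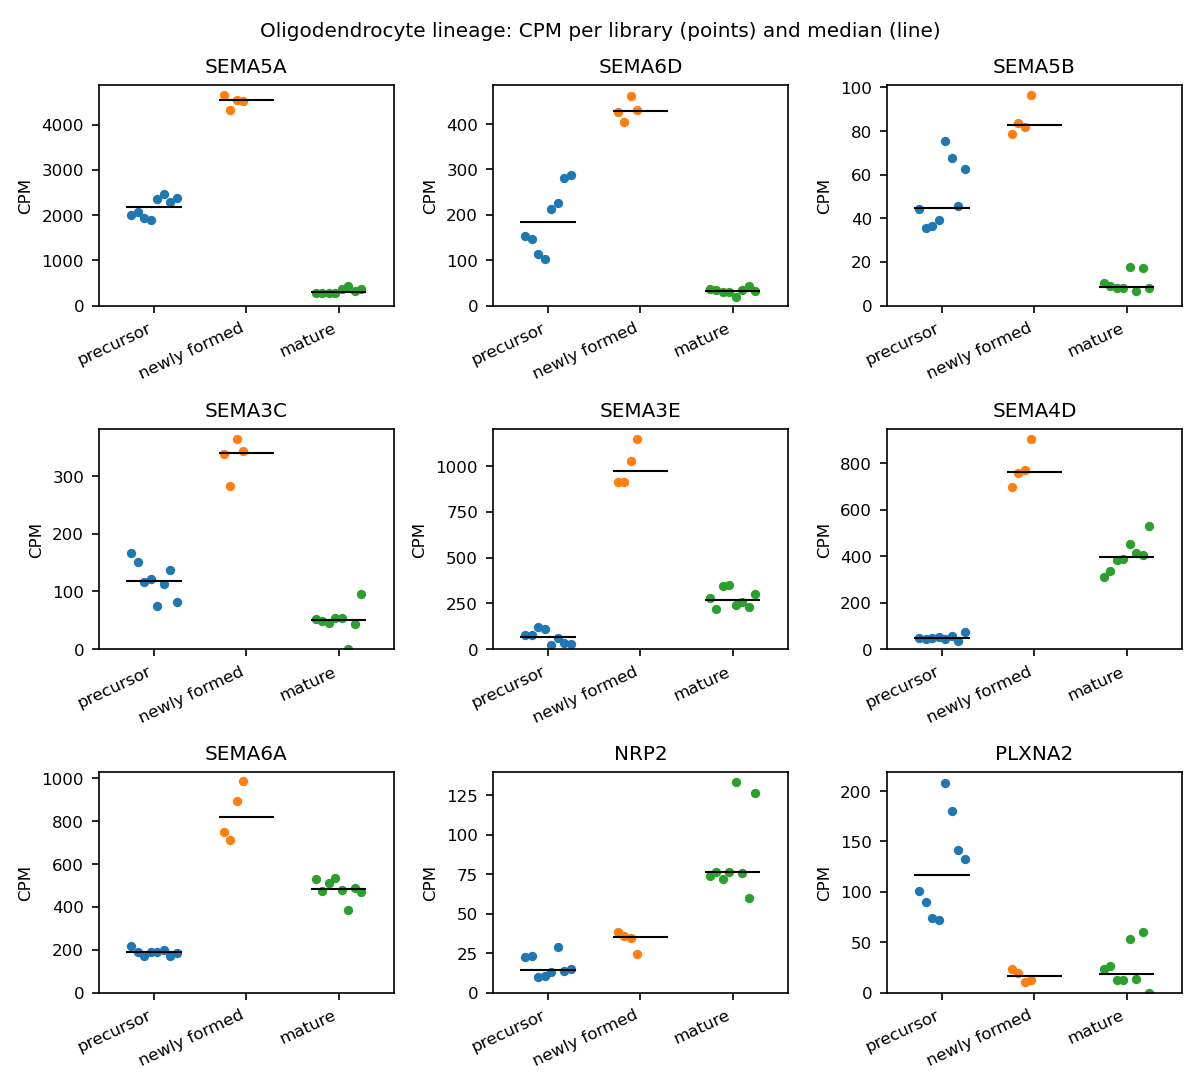
CPM of 9 members (y axes, each from 0) in oligodendrocyte precursors, newly formed and mature oligodendrocytes; points are libraries with at least 50 nuclei of the class (8, 4 and 8), lines their medians. SEMA5A, SEMA6D, SEMA5B and SEMA3C peak in the middle stage, SEMA4D, SEMA3E and SEMA6A are above precursors in both later stages, NRP2 is highest in mature cells and PLXNA2 in precursors. The peak of SEMA5B depended on the clustering: at the finer and the coarser clustering both of its calls in the lineage were lost.

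The other genes of the pathway were a list of 53 co-receptors, alternative ligands, plexin effectors and collapsin response mediators. Between mature cells and precursors 34 were measured. Of these 5 were called higher in mature cells (8.03% of all measured genes) and 8 in precursors (12.8%). CNTN2, a contactin of myelin and axons, was 11.1-fold higher in mature cells, RRAS2, an R-Ras protein of the kind plexins inactivate, 6.88-fold and DPYSL5 (CRMP5), a collapsin response mediator, 2.56-fold. PTPRZ1, a receptor phosphatase, was 29.6-fold, NRCAM, a neuropilin partner of the L1 family of adhesion molecules, 14.3-fold and VEGFA, a neuropilin ligand that is no semaphorin, 9.91-fold higher in precursors. Between newly formed and mature cells 34 were measured and 8 were higher in the former (9.1% of all measured genes). They were led by FYN (10.9-fold), a kinase of plexin A signalling that also promotes myelination, PTPRZ1 (9.48-fold) and NRCAM (8.74-fold). The 4 higher in mature cells (11.5% of all measured genes) were led by CNTN2 (3.55-fold), ARHGEF12 (3.28-fold), an exchange factor of B-type plexins, and RAP1A (2.65-fold), a GTPase that plexins switch off.

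Immature neurons carried DCX, SOX11 and other markers of newborn neurons. They were called higher than granule neurons for 10 of 16 measured semaphorins and 3 of 7 measured plexins and neuropilins. Of 25 measured members 13 were higher in immature neurons (17% of all measured genes) and 2 in granule neurons (8.23%), and the median log2 ratio was 1.01 over the members and 0.28 over all measured genes. Libraries 1 to 4 held enough nuclei of both classes and the other libraries 9 to 18 immature nuclei each. Scaling by trimmed means, which shifted this comparison by 0.34, gave a split of 10 against 4, with SEMA4A, SEMA4C and SEMA4G no longer called.

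SEMA3C was at 969.7, 1019, 958 and 1015 CPM in the immature neurons of libraries 1 to 4 and at 182, 183, 145 and 128 CPM in the granule neurons of the same libraries. The libraries of the classes were far apart, with medians of 993 and 163 CPM. The ratio of the summed counts was 7.73 (7.36 to 8.11), which includes granule neurons of libraries 5 to 8 at 10.9 to 23.3 CPM. SEMA3A, the ligand originally described as collapsin, was at 280.0, 276, 336 and 312 CPM against 68.1, 66.5, 59.6 and 59.9 CPM, 4.94-fold higher (4.56 to 5.35). SEMA6A, which repels through PLXNA2 and PLXNA4, was 5.51-fold higher (4.92 to 6.17), and SEMA7A, the lipid-anchored ligand of PLXNC1, 4.21-fold (3.49 to 5.07). SEMA4A, SEMA4B, SEMA4C, SEMA4G, SEMA5B and SEMA6C made up the other 6 ligands called, at 2.01-fold to 3.20-fold. SEMA4A lost its call without library 2 (log2 ratio 0.99), SEMA4C without library 4 (1.12) and SEMA4G without library 3, 4, 5 or 8 (0.94 to 1.00). SEMA3D was lower in immature neurons at 2.10-fold (1.44 to 3.19), a ratio that fell below 2-fold without library 1 or without library 4 (log2 ratios of -0.84 and -0.91).

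Receptors were among the higher genes as well. PLXNA2 was at 936, 943, 880.3 and 855 CPM in immature neurons of libraries 1 to 4 (median 908). Granule neurons of these libraries had 245, 247, 287 and 255 CPM (median 251). Over the summed counts of all libraries it was 4.16-fold higher in immature neurons (3.99 to 4.34). PLXNC1 was 3.73-fold (3.31 to 4.19) and NRP2 2.58-fold higher (2.43 to 2.73), and PLXDC2 was 2.58-fold higher in granule neurons (2.44 to 2.72). PLXNA4 and NRP1 did not pass: PLXNA4 was at 553 CPM in immature and 885 CPM in granule neurons and NRP1 at 545 and 453 CPM. Of 33 measured pathway genes 8 were higher in immature neurons (17% of all measured genes). Of these DPYSL3 (10.4-fold) and DPYSL5 (4.11-fold) are collapsin response mediators and CNTN2 (5.08-fold) is an adhesion molecule. MICAL2, an actin-oxidising enzyme of the family that binds plexins, was the 1 pathway gene higher in granule neurons (2.04-fold), where 8.23% of all measured genes were called.

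Granule neurons differed from pyramidal neurons in 7 of 25 measured members, 4 higher in granule neurons (5.23% of all measured genes) and 3 higher in pyramidal neurons (5.77%). The median log2 ratio was -0.08 over the members and 0.02 over all measured genes. SEMA5A was at 644 to 1498 CPM in the granule neurons of the 8 libraries (median 988) and at 45.1 to 59.1 CPM in the pyramidal neurons (median 48.6). No library overlapped, and the ratio was 23.7 (22.8 to 24.7). NRP2, the neuropilin preferred by SEMA3F, was at 107 to 224 CPM against 3.79 to 31.7 CPM, 7.69-fold higher (7.18 to 8.23).

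PLXNA4 was 2.21-fold higher in granule neurons (2.17 to 2.26) and highest there of all classes in 8 of 8 libraries. PLXND1, the receptor of SEMA3E, showed the reverse: 0 to 2.2 CPM in granule neurons and 9.73 to 25.5 CPM in pyramidal neurons, 17.0-fold higher in the latter (11.3 to 26.6). PLXNC1 was 3.29-fold (3.04 to 3.56) and SEMA3D 4.24-fold (3.78 to 4.77) higher in pyramidal neurons, both with overlapping libraries. SEMA3E itself was called higher in granule neurons (2.83-fold, 2.73 to 2.93), but its libraries did not behave alike. It was at 374, 355, 369 and 433 CPM in the granule neurons of libraries 1 to 4 and at 106, 100.4, 107 and 114 CPM in libraries 5 to 8, whereas pyramidal neurons had 98.7 to 126 CPM throughout. The lowest log2 ratio of a library was 0.02, and the call was lost in 6 of 10 alternative analyses other than leaving out a library. SEMA3C in granule neurons was split in the same way, at 128 to 183 CPM in libraries 1 to 4 and 10.9 to 23.3 CPM in libraries 5 to 8. These libraries hold different granule clusters, 5 and 21, and the part of library, depth and cluster in the difference was not tested.

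The pyramidal call of SEMA3D depended on the clustering. At the coarser clustering, and with the members among the clustering genes, SEMA3D was at log2 ratios of -1.26 and -1.29 without the same direction in every library. PLXNA4 fell below 2-fold with doublets kept (0.86). In single clusters SEMA3D reached 179 CPM in cluster 26 and 83.3 CPM in cluster 10, both pyramidal, and 12.5 CPM in the pyramidal cluster 27. Of the pathway list PTPRZ1 was 5.004-fold higher in granule neurons, and FARP1 and CHL1 were higher in pyramidal neurons at 9.50-fold and 2.19-fold. FARP1 is an exchange factor that acts with A-type plexins, and CHL1 is a neuropilin partner of the L1 family.

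**Figure D3:**
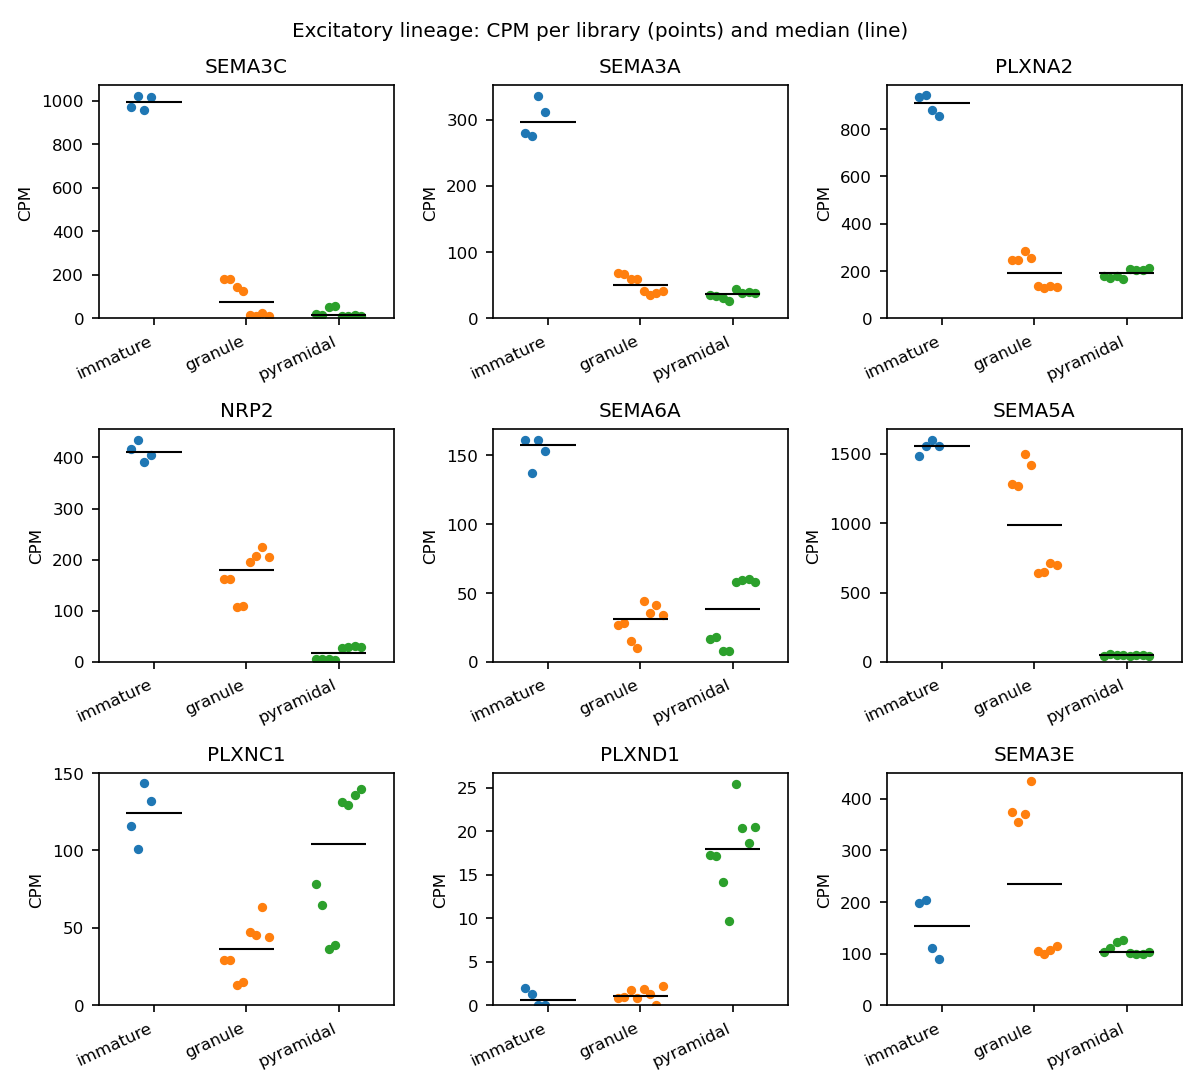
CPM of 9 members (y axes, each from 0) in immature, granule and pyramidal neurons; points are libraries with at least 50 nuclei of the class (4, 8 and 8), lines their medians. SEMA3C, SEMA3A, PLXNA2, NRP2 and SEMA6A are highest in immature neurons, SEMA5A separates granule from pyramidal neurons in every library, PLXND1 is near 0 outside the pyramidal class, and SEMA3E and SEMA3C form 2 sets of granule libraries.

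Across all mature neurons, excitatory nuclei had higher levels of 9 of 25 measured members (6.13% of all measured genes) and inhibitory nuclei of 3 (6.43%). The median log2 ratio was 0.50 over the members and -0.11 over all measured genes. Among the ligands SEMA3E was at 138 to 219.7 CPM in the excitatory nuclei of the 8 libraries (median 162) and at 8.79 to 33.4 CPM in the inhibitory nuclei (median 20.2), 8.83-fold higher (8.23 to 9.48). SEMA3A (2.53-fold, 2.37 to 2.69), SEMA3C (2.60-fold, 2.39 to 2.83), SEMA3D (4.36-fold, 3.84 to 4.97), SEMA4A (2.27-fold, 2.08 to 2.48) and SEMA7A (2.53-fold, 2.22 to 2.90) were also higher in excitatory nuclei. SEMA4A differed by set of libraries: its log2 ratios were 0.06 to 0.78 in libraries 1 to 4, where excitatory nuclei had 11.8 to 14.9 CPM, and 1.15 to 1.75 in libraries 5 to 8, where they had 39.4 to 44.7 CPM. So the 4 class 3 ligands measured here were on the excitatory side, where 6.13% of all measured genes were called. The other class 3 members, SEMA3B, SEMA3F and SEMA3G, were below 10 CPM in both groups and could not be called on either side.

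The 3 inhibitory members were all transmembrane semaphorins. SEMA4G was at 28.2 to 39.6 CPM in inhibitory nuclei and 6.04 to 10.8 CPM in excitatory nuclei, SEMA6A at 134 to 182 CPM against 28.5 to 62.4 CPM and SEMA6C at 25.8 to 43 CPM against 9.79 to 15.4 CPM. None of the 3 overlapped between the groups, and the ratios were 3.84 (3.58 to 4.13), 3.36 (3.25 to 3.47) and 2.69 (2.51 to 2.87). A call already needed the same direction in every library, and of the excitatory calls only SEMA3C and SEMA4A overlapped. Overlap was not counted over all genes, so nothing is read from its absence. Among the receptors NRP1, which binds SEMA3A, was at 317 to 387 CPM in excitatory and 35.9 to 81.1 CPM in inhibitory nuclei, 5.93-fold higher (5.70 to 6.18). PLXND1 was 13.1-fold higher in excitatory nuclei (10.0 to 17.3) and PLXDC2 2.85-fold (2.80 to 2.92). NRP2 leaned to inhibitory nuclei at 2.01-fold (1.94 to 2.09) but not in 2 of 8 libraries. PLXNA2 and PLXNA4, receptors of SEMA6A, did not pass. Of 34 measured pathway genes MICAL2 was higher in excitatory nuclei (2.65-fold), beside 6.13% of all measured genes. In inhibitory nuclei 2 were higher, beside 6.43%, among them VEGFB, a VEGF family ligand (3.20-fold).

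Between the interneuron classes all 5 calls among 22 measured members favoured CGE interneurons (4.43% of all measured genes in this direction, 3.7% in the other), with a median log2 ratio of -0.25 over the members and -0.01 over all measured genes. SEMA5B was at 25.8 to 83.3 CPM in the CGE and 4.43 to 10.8 CPM in the MGE interneurons of the 8 libraries, 7.76-fold higher (6.49 to 9.34). SEMA5A was 3.40-fold (3.19 to 3.62), SEMA3C 2.76-fold (2.30 to 3.31), PLXDC2 2.22-fold (2.11 to 2.33) and NRP1 2.09-fold (1.92 to 2.29) higher. The SEMA3C difference lay mainly in libraries 1 to 4, where CGE interneurons had 60.3, 33.1, 55.1 and 59.2 CPM, against 7.11, 10.1, 6.9 and 12.9 CPM in libraries 5 to 8. MGE interneurons had 4.51 to 15.6 CPM throughout, so the libraries of the classes overlapped, and in libraries 5 and 6 the log2 ratios were -0.06 and -0.16. Weighting each nucleus equally left 3 of the 5, without NRP1 and SEMA3C. Of 34 measured pathway genes FARP1 was higher in MGE (2.28-fold) and DPYSL3 in CGE interneurons (2.11-fold). Within the MGE class PLXNA4 was at 772.5 and 661 CPM in clusters 39 and 18 and 129 CPM in cluster 12, while SEMA6A was at 14.2, 33.8 and 185 CPM in the same clusters.

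Neurons as a whole had higher levels of 7 of 27 measured members than the other nuclei (11.8% of all measured genes) and lower levels of 5 (18.7%). With libraries weighted equally the split was 5 against 8, and with nuclei weighted equally 8 against 3. Median log2 ratios were -0.10 over the members and -0.23 over all measured genes. Receptors made up 5 of the 7: PLXNA4 at 396 to 533 CPM against 57.6 to 93.8 CPM over the libraries (6.72-fold, 6.52 to 6.93), NRP1 (3.29-fold, 3.21 to 3.38), PLXNA1 (2.65-fold, 2.46 to 2.86), PLXNC1 (2.28-fold, 2.18 to 2.37) and PLXNA2 (2.05-fold, 2.00 to 2.11). The ligands were SEMA3D (3.18-fold, 2.88 to 3.52) and SEMA4F (3.11-fold, 2.85 to 3.40), a class 4 protein of synapses whose level was nearly flat over the mature neuron classes, at 25.7 to 28 CPM. On the other side stood SEMA3B (33.0-fold, 26.8 to 41.0), SEMA6A (5.04-fold, 4.94 to 5.15), SEMA5A (3.72-fold, 3.67 to 3.76), SEMA4D (2.43-fold, 2.38 to 2.48) and NRP2 (2.14-fold, 2.08 to 2.20). PLXNA2 without library 3 or without library 4, and NRP2 without library 5 or without library 6, fell below 2-fold (log2 ratios of 0.89 and 0.91, and -0.98 and -0.99). PLXNC1 stayed below 2-fold in every single library (log2 ratios of 0.61 to 0.97), and so below its ratio of summed counts. PLXNA2 and SEMA4D passed 2-fold in libraries 3 and 4 only (1.49 and 1.36, and -2.13 and -1.96). NRP2 did so in libraries 5 to 8 only (-2.25 to -2.58). Libraries of the 2 groups overlapped for PLXNC1, SEMA3D and NRP2. Of 37 measured pathway genes 6 were higher in neurons, led by MICAL2 (6.34-fold), L1CAM (4.35-fold) and CRMP1 (3.02-fold), and 11 in other nuclei, led by FLT1 (19.0-fold), ERBB2 (11.2-fold) and CNTN2 (7.65-fold).

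Single excitatory clusters covered wide ranges. Over the 11 other excitatory clusters NRP1 ran from 36.6 to 911 CPM, SEMA3E from 5.96 to 450.0 CPM, SEMA3C from 3.34 to 451 CPM and PLXDC2 from 79.8 to 2239 CPM. The highest SEMA3C level among them belonged to cluster 41 (114 nuclei), which also had 992 CPM of SEMA5A and 84.6 CPM of SEMA7A, the highest of these clusters for both. SEMA6D ran from 13.6 to 463 CPM over the 5 pyramidal clusters.

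Microglia and astrocytes were separated by 10 of 24 measured members, 5 in each direction (14.8% of all measured genes higher in astrocytes, 13.3% in microglia), with 6 libraries to compare. The members had a median log2 ratio of -0.07 and all measured genes -0.14. PLXDC2 was at 3293, 3423, 5010.1, 4888, 4443 and 4341 CPM in the microglia of libraries 1, 2, 3, 4, 5 and 7, and at 367 to 445 CPM in their astrocytes. It was 10.5-fold higher (10.2 to 10.8), and microglia led all classes for it in each of these libraries. PLXND1 (9.16-fold, 7.19 to 11.7), PLXNB2, the receptor of SEMA4C and SEMA4D (3.44-fold, 2.98 to 3.96), NRP1 (3.44-fold, 3.22 to 3.68) and SEMA7A (3.56-fold, 2.81 to 4.53) were the other microglial members.

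Astrocytes had more of 3 ligands. SEMA4B was at 95.7 to 119.6 CPM against 0 to 7.44 CPM in microglia, 17.2-fold higher (12.1 to 25.5), and at 88.2 CPM in ependymal cells, the other class with much of it. SEMA3B, a secreted ligand of both neuropilins, was 33.7-fold higher than in microglia (15.4 to 92.3) on 6 microglial UMIs, and SEMA6D 2.46-fold (2.04 to 2.98). SEMA3B varied between libraries, with 18.4, 21.6, 29 and 28.6 CPM in the astrocytes of libraries 1 to 4 and 70.7, 85.7, 78.4 and 56.4 CPM in those of libraries 5 to 8. NRP2, called at 2.30-fold (2.12 to 2.51), had the same split, with 141 to 252 CPM in libraries 1 to 4 and 405 to 461 CPM in libraries 5 to 8. Different clusters held most astrocytes of these libraries, cluster 1 and cluster 3, and the median UMI count per nucleus was 2519 in the former and 1842 in the latter; the part of each in the split was not tested. PLXNB1, the high-affinity receptor of SEMA4D, was at 16 CPM in astrocytes on 289 UMIs and had 2 UMIs in microglia, a ratio of 39.7 (10.9 to 329).

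Of 42 measured pathway genes 13 were higher in astrocytes (14.8% of all measured genes) and 11 in microglia (13.3%). ERBB2, a kinase that binds B-type plexins, was 9.89-fold, VEGFA 9.46-fold and PTPRZ1 6.54-fold higher in astrocytes. TYROBP, the adaptor of the TREM2 and plexin A1 complex, was 51.5-fold, the kinase FES, which acts downstream of plexin A1, 14.2-fold and SH3BP1, a Rac regulator that binds plexins, 12.9-fold higher in microglia. PLXNA1 was at 14.1 CPM in microglia and 13.6 CPM in astrocytes.

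The vascular classes were small, and only libraries 1 and 6 held 50 nuclei on both sides. Their kept nuclei also had high doublet scores (the share of simulated doublets among a nucleus's neighbours): the cluster medians were 0.42 in fibroblasts, 0.46 and 0.48 in endothelial cells and 0.52 in mural cells, against 0.28 or less in every other named cluster except the excitatory cluster 42 (0.42). The part of doublets in the vascular values was not tested. Endothelial cells had higher levels of 5 of 27 measured members than mural cells and fibroblasts together (8.32% of all measured genes) and lower levels of 7 (11.7%), with a median log2 ratio of -0.50 over the members and -0.20 over all measured genes. SEMA6A was at 381 and 564 CPM in the endothelial cells of these libraries and 79.4 and 48.4 CPM on the other side, 7.89-fold higher (5.93 to 10.7). NRP1, which is also the co-receptor of VEGF, was at 537 and 427 CPM against 198 and 236 CPM (3.07-fold, 2.59 to 3.67). SEMA7A (4.47-fold, 1.89 to 12.9) and PLXNA2 (2.59-fold, 2.10 to 3.23) were higher as well, and SEMA3F was higher on 29 endothelial UMIs against 1 (18.1-fold, 3.00 to 739).

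PLXND1 was highest in endothelial cells of all classes, at 82.3 CPM (67.6 to 99.1), but mural cells were close at 62.0 CPM (34.7 to 102) and it was not called. It led in 3 of 3 libraries among classes with 50 nuclei. No library held 50 mural nuclei, so this count cannot set endothelial against mural cells. Higher in mural cells and fibroblasts were SEMA3D (12.8-fold, 5.06 to 41.6), SEMA4G, SEMA4B, SEMA4A, PLXDC2 (4.17-fold, 3.68 to 4.72), PLXNC1 (4.01-fold, 2.46 to 6.73) and SEMA5A (2.55-fold, 2.17 to 2.99). The 3 class 4 ligands rested on 13 to 24 UMIs in that group. Of 43 measured pathway genes 6 were called endothelial (8.32% of all measured genes). They were led by the VEGF receptors FLT1 (157-fold) and FLT4 (29.2 CPM against no UMI) and by VEGFC (10.9-fold). The 3 on the other side (11.7% of all measured genes) were ERBB2 (7.12-fold), SERPINF1, the PLXDC ligand (6.21-fold), and DPYSL3 (4.61-fold).

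PLXDC1 was highest in mural cells at 662 CPM (563 to 773), 3.31-fold above endothelial cells (2.71 to 4.05), and between 3.45 and 50.6 CPM in the 14 remaining classes. The endothelial level came mainly from cluster 43 (93 nuclei), at 456 CPM, against 36.7 CPM in cluster 36 (334 nuclei). Cluster 43 also held 7 of 8 mural markers at 10 CPM or more, with a summed level of 1730 CPM against 157 CPM in cluster 36 and 3698 CPM in the mural cluster, and 40 and 42 of its nuclei came from libraries 1 and 2. The part of mural RNA in its PLXDC1 level was not tested. Without cluster 43 all 12 vascular calls were kept and 3 were added. At the coarser clustering, where no mural class was formed, 5 of the 12 were kept.

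**Figure D4:**
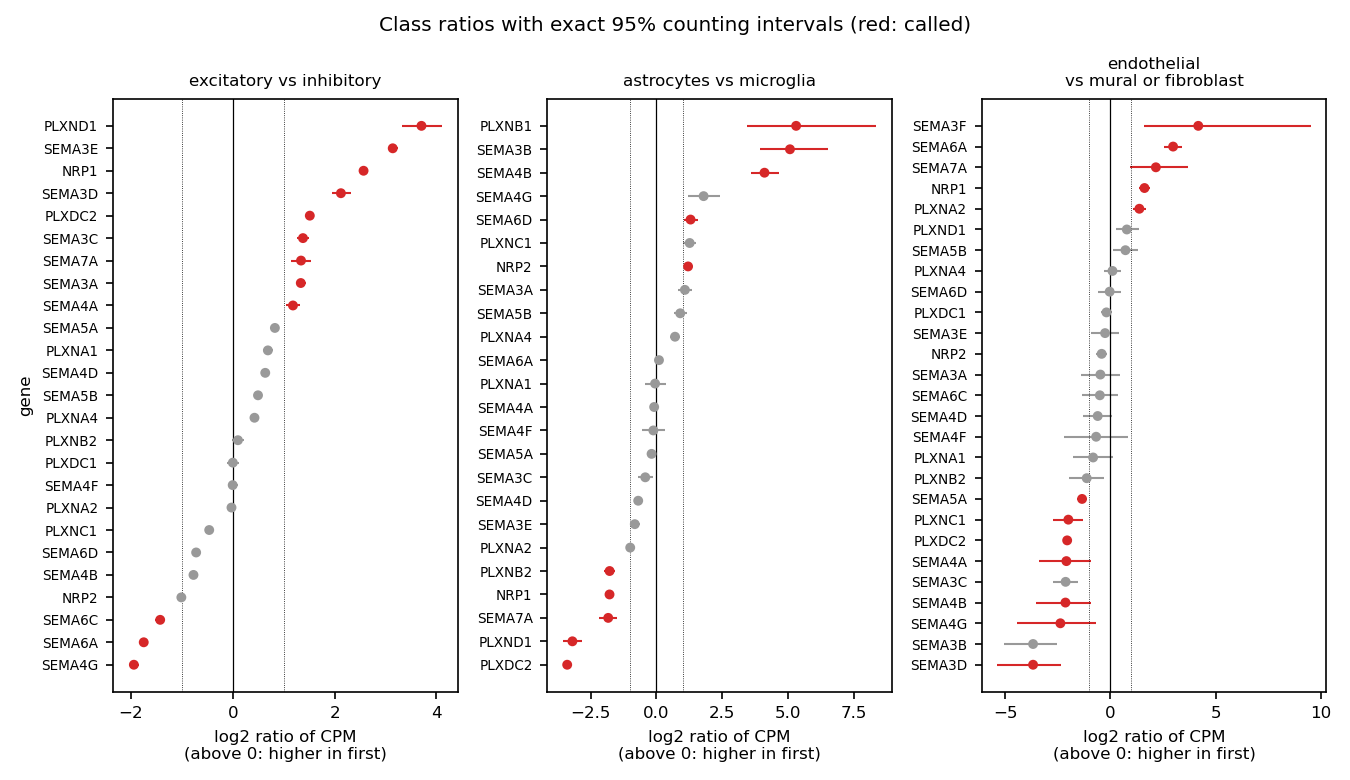
Log2 ratio of CPM (x axis) for every measured member in 3 comparisons, with exact 95% counting intervals; red members were called, dotted lines mark 2-fold. Ratios run from SEMA4G to PLXND1 between inhibitory and excitatory nuclei, from PLXDC2 to PLXNB1 between microglia and astrocytes, and intervals are widest in the small vascular classes.

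Ligands and receptors were then paired by a list of 33 textbook pairs. Both genes were in the matrix for 32 pairs and both reached 10 CPM in some class for 26. Ligand and receptor were highest in different classes in 24 of these 26 pairs and in the same class, the immature neurons, in 2: SEMA3A with PLXNA2 and SEMA3C with NRP2. Some leads were not resolved. NRP1 was at 582 CPM in endothelial cells and 545 CPM in immature neurons, and PLXNC1 at 123 CPM in CGE interneurons and 118 CPM in immature neurons. For both, the interval of the ratio to the next class included 1. SEMA3A and SEMA3C with NRP1, and SEMA7A with PLXNC1, are thus not clearly apart. Over all 162 combinations of the 18 semaphorins and 9 plexins and neuropilins that reached 10 CPM, 11 (6.79%) shared their leading class, so nothing is read from the 24. At least 1 class held both genes at 10 CPM in all 26 pairs, with 5 CPM as the limit in 27 and with 20 CPM in 23. Levels of different genes are not compared here, since the counts depend on each transcript's 3' end.

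The known pair of SEMA3E and PLXND1 had its high levels in different classes. SEMA3E was highest in newly formed oligodendrocytes (1016 CPM), mature oligodendrocytes (323 CPM) and granule neurons (303 CPM), where PLXND1 was at 1.73, 1.03 and 1.10 CPM. PLXND1 was highest in endothelial cells, mural cells and microglia, where SEMA3E was at 35.1, 16.5 and 66.3 CPM. Over the 18 excitatory clusters 9 held both at 10 CPM, 6 SEMA3E alone and 3 PLXND1 alone. Cluster 14 had 307 CPM of SEMA3E and 2.26 CPM of PLXND1, and cluster 23 had 5.96 and 44.6 CPM.

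SEMA4D and PLXNB2 were both at 10 CPM or more in 13 of 16 classes. In newly formed oligodendrocytes, where SEMA4D was at 841 CPM, PLXNB1 was at 5.75 CPM and PLXNB2 at 4.22 CPM. Both receptors were thus below 10 CPM in the class with most SEMA4D. PLXNB1 was weak nearly everywhere, however, and this class was 1 of only 4 of 16 in which it reached 5 CPM. PLXNB1 passed 10 CPM in astrocytes and ependymal cells only, and PLXNB2 was highest in microglia (77.8 CPM) and ependymal cells (71.4 CPM), whose SEMA4D levels were 198 and 53.4 CPM. Spearman's rank correlation over the 16 classes ran from -0.64 to 0.54 over the 26 pairs, with a median of 0.02, a description, since classes share libraries and depth. The lowest was that of SEMA6A and PLXNA4, named after its value was seen, although both were at 10 CPM or more in all 16 classes. SEMA6A was at 886 CPM in newly formed oligodendrocytes and 27.4 CPM in granule neurons, and PLXNA4 at 23.8 and 885 CPM.

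Some pairs are given here with a class that held both genes. Of these only SEMA4A and PLXNB1 met in 1 class alone, and the others also met elsewhere. SEMA3C and NRP2 were at 983 and 420.0 CPM in immature neurons, and SEMA3A, PLXNA2, PLXNA4 and NRP1 were at 287, 921, 553 and 545 CPM there. SEMA7A and PLXNC1 were at 50.7 and 118 CPM in the same class, and 9 of 16 classes held both. SEMA4A, which was highest in microglia (83.8 CPM) and astrocytes (79.0 CPM), met PLXND1 in microglia at 48.2 CPM and PLXNB1 in astrocytes.

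**Figure D5:**
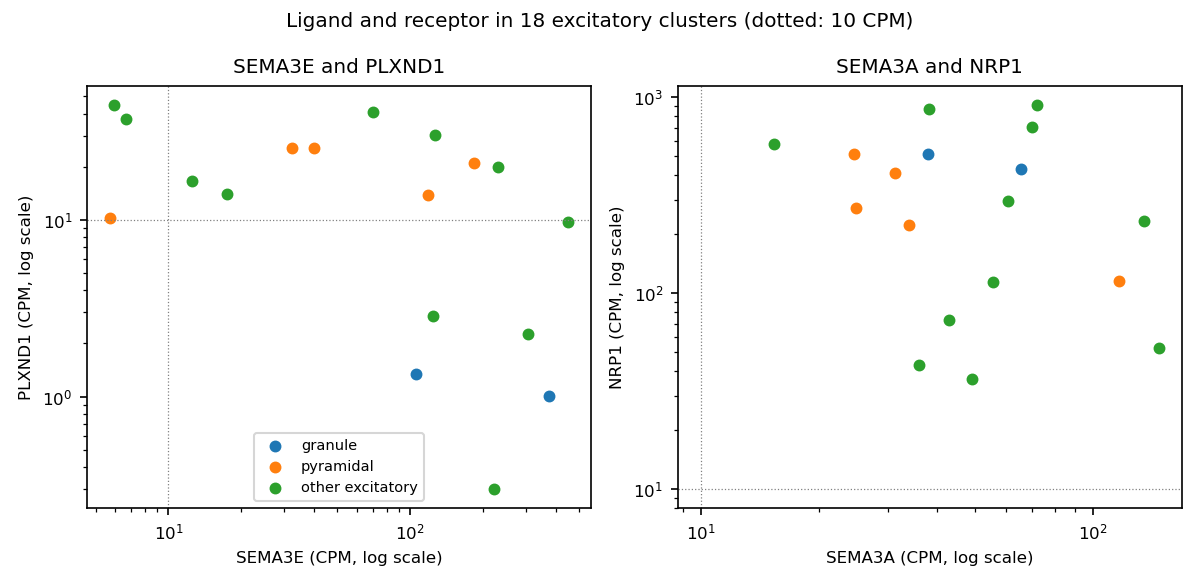
CPM of ligand (x axis, log scale) and receptor (y axis, log scale) in 18 excitatory clusters, coloured by class; dotted lines mark 10 CPM. The 2 granule clusters lie below the PLXND1 line, at 1.35 and 1.01 CPM, while SEMA3A and NRP1 are above 10 CPM in all 18.

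Some members lie side by side in the genome. In the reference annotation T2T-MMU8v2.0, used here for order only, SEMA3D, SEMA3A and SEMA3E follow each other with no other protein-coding gene between, and 4 such genes part SEMA3E from SEMA3C. Their leading classes were fibroblasts, immature neurons, newly formed oligodendrocytes and immature neurons. Spearman's rank correlation between their orders of the 16 classes was 0.11 to 0.54, a description. SEMA3D had nearly the same level in pyramidal neurons (62.7 CPM) as in fibroblasts (65.8 CPM on 39 UMIs). SEMA3F and SEMA3B, with 3 genes between them, led in endothelial cells (21.7 CPM) and fibroblasts (91.1 CPM, 68.5 to 119), each followed by astrocytes at 8.69 and 40.8 CPM.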

How the data were processed

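Per the file headers, the deposited matrix holds whole-number UMI counts made with Cell Ranger 3.1.0, and the submitters' processing notes also name CASAVA 1.8 and Seurat; the genome build is not given in the sources used here. Of 59749 barcodes, 58220 had at least 500 UMIs and 300 genes, and 54644 were kept after 3576 doublets (0.8% per 1000 nuclei of a library, by simulated doublets) were removed. The nuclei were clustered (scanpy 1.11.5, leidenalg 0.10.2) on 2000 variable genes without the members and pathway genes, 30 components, 20 neighbours and resolution 1. Of 44 clusters 4 stayed unnamed (2672 nuclei, 4.89%). The marker scoring was settled after the data were seen, and the members, lists and pairs were chosen with earlier results of these data known.

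UMIs were summed per class and divided by the class total (CPM). Intervals are exact 95% Poisson (levels) or conditional binomial (ratios) intervals and cover counting error only. There is no p-value, because no source ties the 8 libraries to the samples. All members could be named; of the pathway list, the 3 called genes with the largest fold in each direction of a comparison were named. The steps were tested on simulated data, in which false calls were most frequent in the vascular comparison, the one with 2 libraries to compare. Alternatives covered scaling, weights of libraries and nuclei, filters, doublets, clustering, free RNA and leaving out each library. Gene order came from RefSeq.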

Additional observations from a re-analysis of the deposited data

Results flagged for a closer look

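In 4 of 81 sets of library ratios of called members, each of 4 to 8 libraries, 1 library stood apart from the others by Dixon's criterion. Chance flags about 1 in 20 such sets. For SEMA3D in neurons against other nuclei, library 5 had a log2 ratio of 2.64 and the others 0.89 to 1.55. For SEMA6A in mature oligodendrocytes against precursors, library 6 had 0.95 and the others 1.29 to 1.59. SEMA4G in newly formed against mature oligodendrocytes was at -0.44 in library 2 and at -2.48 to -2.17 in the other 3. PLXND1 in astrocytes against microglia was at -2.01 in library 5 and at -3.96 to -3.32 in the other 5. All 4 libraries kept the direction of their call.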

How the results depend on the processing

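Of the 93 calls, 67 were kept in every analysis; subtracting 5% free RNA or dropping the minimum CPM lost none, and leaving out a library lost 0 to 4. With nuclei weighted equally, 3 members in place of 5 were called between MGE and CGE interneurons. At the coarser clustering (resolution 0.5) 19 of 29 members kept their leading class, and newly formed oligodendrocytes led for 3 of the 6 they led for before. The other total counts of calls per comparison stayed within 1.5 times of the main count in every analysis run; the counts in 1 direction moved more, such as 7 against 3 becoming 3 against 5 for newly formed against mature oligodendrocytes at resolution 2. The ratio changed sign for SEMA3D in newly formed against mature oligodendrocytes with libraries weighted equally (log2 ratio -0.47), for SEMA4D in the same comparison at resolution 0.5 (-0.14) and 2 (-0.12), and for SEMA3F in endothelial cells against mural cells or fibroblasts at resolution 0.5 (-0.66). The cause was not tested. Taking only libraries with at least 50 nuclei of both classes, and leaving out cluster 43, were alternatives chosen after seeing the data; neither lost a call. MGE against CGE was not run at resolution 0.5, where no CGE class was formed, and no mural class was formed at resolution 0.5 or with at least 1000 genes per nucleus. No paired analysis was possible because no source ties the libraries to the samples, so sevoflurane and control were not compared. Counts limit the vascular classes most.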
